A study of Mus musculus with 96 samples.

Results

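Cardiomyocyte identity genes were described here as 9 genes, Myh6, Actc1, Tnnt2, Tnni3, Nppa, Nppb, Myl7, Myl4 and Ryr2, which are the rows with these symbols among the 41575 gene symbols of the count table. All 9 were found. A cardiomyocyte contracts when calcium released from the sarcoplasmic reticulum binds troponin on the actin thin filament and so lets myosin of the thick filament pull on it. Atrial and ventricular cardiomyocytes build these filaments from partly different myosin light chains, and atrial cells also store a natriuretic peptide, a hormone that lowers blood volume and pressure. Several of the genes are also used elsewhere, by developing skeletal muscle or by neurons, so a level outside the heart does not by itself mark a cardiomyocyte.

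The libraries came from wild-type mice and from Scx-/- mice aged 3 weeks, which lack scleraxis, a transcription factor of tendon and other connective tissue progenitors, in the whole body. No group carried any other labelled allele or treatment. For each genotype 3 libraries were made from each of 16 tissues, so that a tissue had 6 libraries and the series 96. Beside heart these were skeletal tissues (muscle, bone and cartilage), brain (cortex and hippocampus), gut (stomach, intestine and rectum), liver, kidney, bladder, lung, spleen, and samples labelled adipose and vascular, all from organs that were taken whole and frozen. The labels do not say which heart chambers a library held, whether the libraries of a group came from separate mice, or whether libraries of different tissues came from the same mouse. The p-values below therefore measure the spread between libraries, which may be technical.

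Total counts were 11244 to 1658192 per library (median 251640), and 8 libraries held fewer than 50000. Scx had 80 counts over the 48 wild-type libraries, in 12 of them. It had 9 counts over the 48 Scx-/- libraries, all in cartilage replicate 1. In heart, Scx was at 0 in all 6 libraries, so the genotype of the heart libraries could not be checked from this gene. Heart totals were 439907, 11244 and 281535 counts in wild-type replicates 1, 2 and 3 and 219017, 159806 and 185626 in Scx-/- replicates 1, 2 and 3. Wild-type heart replicate 2 stood apart from the other 5 heart libraries. Its summed level of 10 smooth muscle genes was 7381.7 CPM (each count divided by its library's total and scaled up by a constant), against 1433.0 to 2853.5 CPM in the other 5. Its summed level of 10 fibroblast genes was 10405.5 CPM, against 3528.6 to 5519.7 CPM. Levels below are CPM, which are not divided by transcript length, so they are compared between samples and not between genes.

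In the mouse genome (mm10, which is GRCm38, with GENCODE vM21 gene models) the thick filament genes lie at chr14:54941921-54966927 on the minus strand (Myh6), chr11:5896637-5898782 on the minus strand (Myl7) and chr11:104550663-104595753 on the plus strand (Myl4). The thin filament genes lie at chr2:114047282-114053548, minus (Actc1), chr1:135836354-135852260, plus (Tnnt2), and chr7:4518305-4524229, minus (Tnni3). The natriuretic peptide genes are neighbours on chromosome 4, Nppb at chr4:147985788-147987205 and Nppa at chr4:148000722-148002079, both on the plus strand. Ryr2 covers chr13:11553102-12106945 on the minus strand. Actc1 has close relatives in Acta1 and Acta2, and Myh6 in Myh7, so reads from regions that these genes share could be assigned to either, and their counts are uncertain to that extent. Tnni3 overlaps Dnaaf3 on the same strand, and Dnaaf3 itself held 20 counts over the 6 heart libraries and 5 over the 6 stomach libraries. Nppa, Myl4, Actc1, Ryr2 and the end of Myh6 overlap transcripts or pseudogenes of the opposite strand, and since the strand setting of the counting is not given, reads of the 2 strands cannot be told apart there.

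Nppa, Myl7 and Myl4 varied together between the heart libraries, as described further on, so the 250 bases before their RefSeq transcription starts (GRCm38.p6) are shown for comparison. They were searched on both strands for TNAAGTG, a binding motif of the cardiac factor NKX2-5, for AGATAA, which zinc finger factors such as Gata4 bind, and for the CArG box of serum response factor. Capitals mark these 3 motifs. CANNTG (the E-box) and TATAAA (the TATA box) were searched too and are not marked. The windows are chr4:148000472-148000721 (plus strand) for Nppa, chr11:5898783-5899032 (minus strand) for Myl7 and chr11:104550413-104550662 (plus strand) for Myl4.

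Nppa: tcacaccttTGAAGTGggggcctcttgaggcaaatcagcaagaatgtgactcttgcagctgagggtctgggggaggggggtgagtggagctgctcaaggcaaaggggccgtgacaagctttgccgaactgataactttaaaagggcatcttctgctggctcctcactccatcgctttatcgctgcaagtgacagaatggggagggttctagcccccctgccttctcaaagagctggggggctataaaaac
Myl7: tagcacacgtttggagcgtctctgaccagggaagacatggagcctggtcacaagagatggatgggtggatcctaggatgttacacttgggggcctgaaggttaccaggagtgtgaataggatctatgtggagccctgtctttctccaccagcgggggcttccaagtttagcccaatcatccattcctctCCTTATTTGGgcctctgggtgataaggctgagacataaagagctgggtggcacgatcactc
Myl4: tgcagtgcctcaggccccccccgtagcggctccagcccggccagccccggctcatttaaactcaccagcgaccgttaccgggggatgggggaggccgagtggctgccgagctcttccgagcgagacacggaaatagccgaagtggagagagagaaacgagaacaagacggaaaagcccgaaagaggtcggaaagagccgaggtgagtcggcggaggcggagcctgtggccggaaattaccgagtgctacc

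The Nppa window held 1 match of TNAAGTG, which began 241 bases before the start, and the Myl7 window held 1 CArG box, which began 61 bases before the start. The Nppa window also held 2 E-boxes and 1 TATA box and the Myl7 window 1 E-box. The Myl4 window held none of the 5 motifs. Among 27025 promoter windows of the same length, 10% held TNAAGTG, 10.3% held AGATAA, 1.4% held a CArG box, 66% held an E-box and 13% held TATAAA. No motif of those searched was in all 3 windows, and a match is a description of the letters and not a site of binding.

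The first comparison asked where each gene was expressed. Heart had the highest mean level of all 16 tissues for every one of the 9 genes. For Nppb this rested on 11 counts, all in Scx-/- heart. Heart accounted for 98.0% of the summed tissue means of Nppa, 97.3% for Myh6, 92.3% for Tnni3, 87.7% for Tnnt2, 83.3% for Myl7, 73.6% for Myl4, 66.5% for Ryr2 and 59.5% for Actc1. Atrial natriuretic peptide and alpha myosin heavy chain thus lay at the specific end of these 8 genes, and cardiac actin, the ryanodine receptor and the light chain Myl4 at the other. In the wild-type libraries alone the shares of Myl7 (75.3%) and Myl4 (60.9%) were lower, and Myl4 then lay below Ryr2 (65.1%). The share of Nppb was 100%, but with each other tissue at the level that 3 counts over its libraries would give it could be as low as 23.5%, so its place in this order is not known. By the same bound the wild-type share of Nppa could be as low as 90.7%, beside 90.9% for Tnni3. The place of Nppa above Tnni3 is thus not fixed in wild type alone. In a quasi-likelihood test by edgeR, with p-values adjusted over all genes by Benjamini and Hochberg, 118 of the 135 pairs of a gene and another tissue were higher in heart at an adjusted p under 0.05 and 0 were lower, beside 4.52% of all gene and tissue pairs that were higher in heart. Myh6, Tnnt2, Tnni3, Nppa and Ryr2 were higher in heart than in each of the 15 tissues. Of the 17 pairs that did not pass, 14 belonged to Nppb, 1 was Actc1 against muscle and 2 were Myl7 and Myl4 against vascular. Some of the calls were lost when a library was left out. Against vascular, Tnni3 (adjusted p = 0.0377) and Tnnt2 (adjusted p = 0.0292) did not pass when any one of 10 of the 12 heart and vascular libraries was left out (adjusted p = 0.0503 to 0.106). Without wild-type heart replicate 2, Nppa did not pass against cartilage, stomach or vascular (adjusted p = 0.11, 0.0509 and 0.108) nor Myl7 against cartilage (adjusted p = 0.129). Nppb passed only against cortex (adjusted p = 0.0307), and not without Scx-/- heart replicate 1 or 3 or any Scx-/- cortex library (adjusted p = 0.0583 to 0.104).

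**Figure D1:**
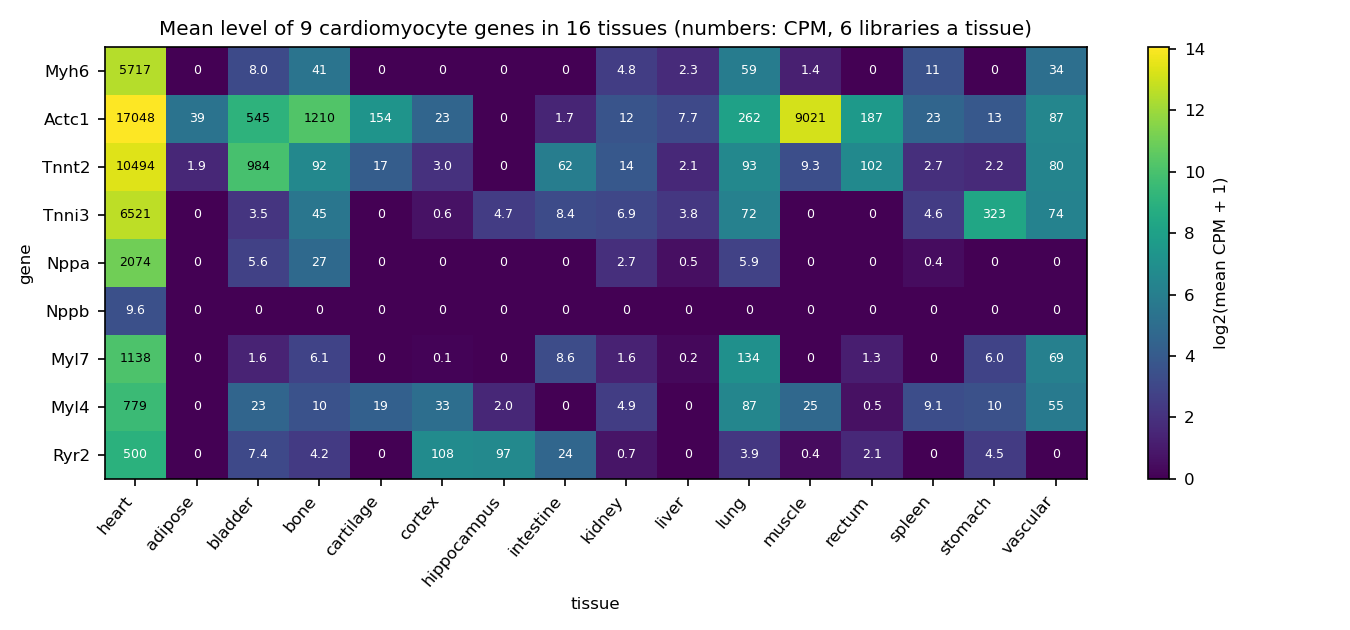
Mean CPM of the 9 genes (rows) in the 16 tissues (columns), 6 libraries a tissue with both genotypes together. Colour is log2(mean CPM + 1) and the printed number is the mean CPM. The heart column is the brightest of every row, muscle is bright for Actc1 (9020.6 CPM), and lung and vascular show low values for most rows.

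Myh6 encodes the alpha myosin heavy chain, the main myosin motor of the adult mouse heart. Its heart mean was 5717.2 ± 1000.6 CPM (SD, n = 6), and its next tissue was lung at 59.4 CPM, 96.2-fold lower. It had no count in adipose, cartilage, cortex, hippocampus, intestine, rectum or stomach. Over the 90 libraries outside the heart, 25 held at least 1 Myh6 count. Lung and the tissue after it, bone at 40.8 CPM, did not differ beyond their spread (exact permutation test of 6 against 6 libraries on log2(CPM + 1), two-sided, p = 0.909, adjusted p = 1.0 over 135 pairs of neighbouring tissues).

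No pair of tissues next to each other in the order of levels passed an adjusted p under 0.05 in that exact permutation test, and 14 of the 135 pairs had an unadjusted p under 0.05. The smallest p that 6 against 6 libraries allow is 0.00216, which became 0.0584 after adjustment. The 135 pairs include pairs with both tissues at 0, such as adipose and cartilage for Myh6. Such pairs could not differ and made the adjustment stricter, so the lack of a pass is not evidence of equal levels. The steps that reached it were from heart to the next tissue for Myh6, Tnnt2 and Tnni3, from muscle to bone for Actc1 and from bladder to rectum for Tnnt2, each with no overlap between the libraries. The step from heart to cortex for Ryr2 had p = 0.63 in this exact test, with wild-type heart replicate 2 at 0, while the fit across all genes gave a log2 fold change of 2.36 ± 0.38 SE (adjusted p = 9.44e-09, edgeR). When levels were scaled by TMM factors, 6 of the 135 pairs passed.

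Actc1 encodes cardiac alpha actin, the actin of the heart's thin filament, which skeletal muscle also makes during development. Its level in muscle was 4209.3, 10179.8 and 15945.4 CPM in the wild-type libraries and 5882.0, 9343.3 and 8563.7 CPM in the Scx-/- libraries. In heart it was 19208.6, 15030.2 and 24707.4 CPM in wild type and 18236.0, 13497.6 and 11609.4 CPM in Scx-/-. The 2 tissues overlapped, and the difference did not pass the test (log2 fold change of heart over muscle 0.31 ± 0.36 SE, adjusted p = 0.702 in edgeR). With library totals in place of TMM factors the same difference was 0.91 and passed (adjusted p = 0.0029). Bone followed at 1210.0 CPM and bladder at 545.0 CPM, and Actc1 was at 0 in all 6 hippocampus libraries.

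The cardiac troponins had tissues of their own outside the heart. Tnnt2, cardiac troponin T, which anchors the troponin complex to the thin filament, had 1006.9, 796.0 and 612.8 CPM in wild-type bladder and 685.9, 1597.9 and 1205.7 CPM in Scx-/- bladder. Every bladder library thus held Tnnt2 at 612.8 CPM or more, while Tnni3 in the same 6 libraries was 0 to 6.8 CPM and Myh6 was 0 to 18.7 CPM. Rectum was mixed, with 280.5 CPM in 1 wild-type library, 156.0 and 178.3 CPM in 2 Scx-/- libraries and 0 in the other 3. Tnni3, cardiac troponin I, which holds the filament off until calcium arrives, had stomach as its next tissue. Its stomach level was 433.5, 263.2 and 392.7 CPM in wild type and 307.1, 255.6 and 285.6 CPM in Scx-/-. All 6 stomach libraries held Tnni3 with at least 88 counts each, although Myh6, Nppa and Nppb had no count in any of them. The heart was 10.7-fold above bladder for Tnnt2 and 20.2-fold above stomach for Tnni3 by mean CPM.

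Ryr2 encodes the calcium release channel of the cardiac sarcoplasmic reticulum, which neurons also use. Its cortex level was 114.6, 73.1 and 178.4 CPM in wild type and 96.5, 74.6 and 110.6 CPM in Scx-/-, and its hippocampus level was 168.7, 81.2 and 56.0 CPM in wild type and 66.2, 113.3 and 94.0 CPM in Scx-/-. All 12 brain libraries therefore held Ryr2. It passed the test against liver, which held no Ryr2 count, in cortex (adjusted p = 2.39e-17, edgeR) and in hippocampus (adjusted p = 7.19e-07). Myl4 also passed in cortex (32.8 CPM against 0 in liver, adjusted p = 3.18e-06). These were 2 of the 8 genes tested in cortex, where 22.9% of all genes were higher than in liver, and 1 of 8 in hippocampus, where 14.3% were, so the number of genes called was close to the background in these tissues. Actc1 was lower in hippocampus than in liver (0 against 7.69 CPM, adjusted p = 0.0324), the 1 gene of 8 called in that direction there, beside 11.5% of all genes. That call was lost when any hippocampus library or Scx-/- liver replicate 3 was left out (adjusted p = 0.053 to 0.0793) and with DESeq2 (adjusted p = 0.0842). In muscle 2 of 8 were higher than in liver, Actc1 and Myl4 (25.4 CPM, adjusted p = 0.000184), beside 8.46% of all genes.

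**Figure D2:**
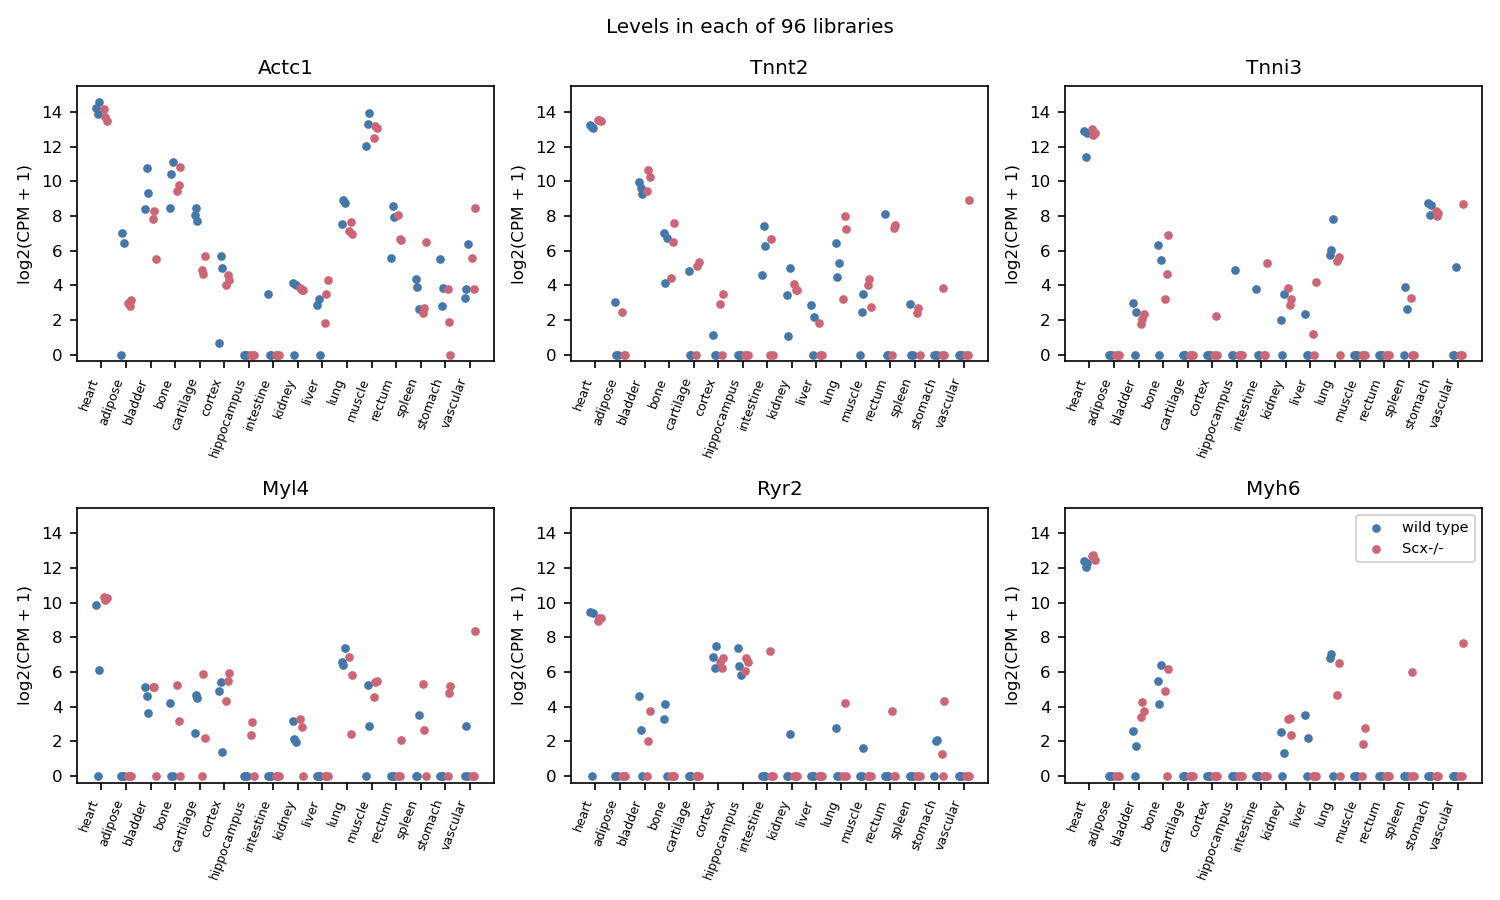
Log2(CPM + 1) of 6 of the genes in each of the 96 libraries, by tissue and genotype (blue, wild type, and red, Scx-/-). Points at 0 are libraries without a count. Actc1 in muscle, Tnnt2 in bladder, Tnni3 in stomach and Ryr2 in cortex and hippocampus are present in every library of the tissue, whereas the highest vascular point of Tnnt2, Tnni3, Myl4 and Myh6 is a single library.

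Lung held low levels of nearly the whole set. Per library the summed level of the 9 genes was 646.3, 898.7 and 1203.1 CPM in wild-type lung and 347.1, 782.5 and 428.7 CPM in Scx-/- lung. The same sum was 31661.3 to 52941.1 CPM in heart, so that every lung library lay far below every heart library. Myl7, the atrial regulatory light chain, had 108.2, 107.0 and 338.4 CPM in wild-type lung and 8.26, 149.5 and 93.2 CPM in Scx-/- lung. Myl4, the atrial essential light chain, which embryonic muscle also makes, had 93.6, 85.6 and 169.2 CPM and 115.7, 4.4 and 55.9 CPM. Both were detected in all 6 lung libraries. The lung libraries also held skeletal muscle transcripts. Their summed level of 18 skeletal muscle genes was 225.2, 9030.2 and 4473.9 CPM in wild type and 4198.4, 1925.6 and 4482.7 CPM in Scx-/-. The part of skeletal muscle in the lung values was not tested.

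Against liver, 5 of the 8 genes tested were higher in lung, beside 6.4% of all genes. They were Myl7 (log2 fold change 6.33 ± 1.30 SE, adjusted p = 1.89e-05), Actc1 (3.60 ± 0.80, adjusted p = 0.000111), Tnnt2 (4.06 ± 1.22, adjusted p = 0.00787), Myh6 (3.89 ± 1.39, adjusted p = 0.0344) and Myl4, which liver did not hold (adjusted p = 0.000155). Tnni3 (72.0 CPM, adjusted p = 0.182), Ryr2 (3.91 CPM, adjusted p = 0.156) and Nppa (5.86 CPM, adjusted p = 0.406) did not pass. Without Scx-/- lung replicate 2, Tnnt2 (adjusted p = 0.0829) and Myh6 (adjusted p = 0.137) no longer passed, and without wild-type lung replicate 1 Myh6 did not (adjusted p = 0.104). The Myh6 call was also lost without wild-type lung replicate 2 (adjusted p = 0.0566), wild-type liver replicate 2 (adjusted p = 0.0605) or any Scx-/- liver library (adjusted p = 0.0814 to 0.0885), and Tnni3 passed without Scx-/- liver replicate 3 (adjusted p = 0.0397). Myl7, Actc1 and Myl4 passed without any 1 of the 12 lung and liver libraries.

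Of the counts of Nppa and Myl7 together, the share of Nppa was 60.9% ± 9.62 in heart and 12% ± 19 in lung (SD, n = 6 each). This ratio of 2 of the genes was chosen after its values were seen, so it is a description with no test. Lung held 7 Nppa counts and 105 Myl7 counts in all, and 1 lung library had 1 count of each, so its share of 50% rested on 2 counts. The heart shares ran from 47.9% to 68.7% and the other 5 lung shares from 0 to 9.09%. In heart, wild-type replicate 2 had 2 counts of each gene, so its share of 50% also rested on few counts.

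Vascular values came almost wholly from 1 library. Scx-/- vascular replicate 3, with 89461 counts, held 201.2 CPM of Myh6, 357.7 of Actc1, 480.7 of Tnnt2, 413.6 of Tnni3, 413.6 of Myl7 and 324.2 of Myl4, while Nppa, Nppb and Ryr2 were at 0. The summed level of the set was 2190.9 CPM in it and 8.46 to 114.5 CPM in the other 5 vascular libraries. The same library held 4650.1 CPM over 8 hepatocyte genes, against 58.2 to 398.4 CPM in the other 5, and 134.1 CPM over 10 lung epithelium genes, which were at 0 in the other 5. All 6 vascular libraries held brown fat transcripts, with 3755.8 to 13762.3 CPM over 8 brown fat genes against 16.5 to 111.8 CPM in lung, and Scx-/- replicate 3 had the lowest of these 6 values. The part of other tissues in these values was not tested. Myl7 and Myl4 were the 2 of 7 genes that passed against liver in vascular (adjusted p = 0.0312 and 0.0116), beside 4.39% of all genes. Without that library they did not (Myl7 adjusted p = 0.732, Myl4 adjusted p = 0.565), and then both passed as higher in heart than in vascular (adjusted p = 3.5e-31 for Myl7 and 6.47e-23 for Myl4). Both also passed as higher in heart than in vascular without wild-type heart replicate 1 (adjusted p = 2.42e-09 for Myl7 and 3.89e-08 for Myl4). Both vascular calls were also lost without any one of the 3 Scx-/- liver libraries (adjusted p = 0.0504 to 0.136).

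**Figure D3:**
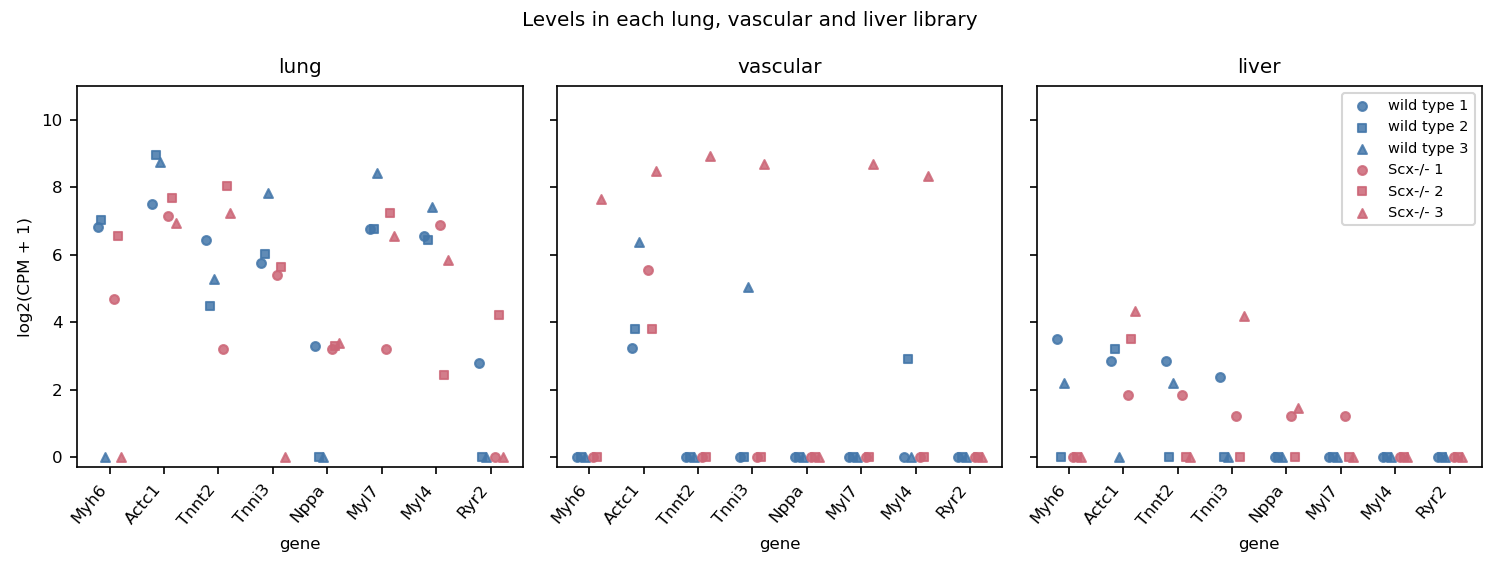
Log2(CPM + 1) of 8 of the genes in each library of lung, vascular and liver, with colour for genotype and symbol for replicate. In lung most genes are spread over several libraries, in vascular the high points are Scx-/- replicate 3, and liver stays below 20 CPM in every library.

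Bone libraries held low levels as well. Myh6 was counted in 5 of the 6 bone libraries (0 to 84.9 CPM), Tnnt2 in all 6 (16.7 to 189.3 CPM), Tnni3 in 5 (0 to 118.3 CPM) and Nppa in 4 (0 to 94.6 CPM). Bone was the only tissue outside the heart with a mean Nppa level above 10 CPM, at 27.0 CPM, and this mean rested on 14 counts. Nppb, the precursor of the B-type peptide that the strained ventricle releases, had no count in any of the 90 libraries outside the heart, which at 32326434 counts in all allows up to 0.0928 CPM.

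By Pearson's r of log2(CPM + 1) over all 96 libraries, among 15926 genes that reached a mean of 10 CPM in a tissue, the genes most like Myh6 were Mybpc3 (0.879), Nppa (0.841) and Myl7 (0.78). Those most like Nppa were Mybpc3 (0.851), Myh6 (0.841) and Tecrl (0.834), and the best for Tnnt2 was Tbx20 (0.756). Actc1 was most like Ckm (0.811), Mb (0.783) and Ckmt2 (0.782), which muscle also expresses. Ryr2 was most like Gpr22 (0.823), Frmd5 (0.787) and Snap91 (0.74). Tnni3 was most like Myl7 (0.768) and Myl7 most like Myh6 (0.78), and Myl4 had the lowest best value of the 8 genes tested (0.68, with C130080G10Rik). The points share tissues and libraries, so these values are a description, and Nppb was below the 10 CPM minimum.

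The second comparison asked whether loss of Scx changed these genes in the heart. None of the 9 genes passed the test between all 3 libraries of each genotype. Every Scx-/- library lay above every wild-type library for Nppa, Myl4, Myh6 and Tnnt2, while the groups overlapped for Myl7, Tnni3, Actc1 and Ryr2. At an adjusted p under 0.05 in edgeR, 0 of the 9 genes passed, beside 0.0391% of the 12799 genes tested. At an unadjusted p under 0.05 there were 2, Nppa and Myl4, beside 3.41% of all genes, and DESeq2 gave 0 of the 7 genes to which it assigned an adjusted p. In bulk tissue, more cells of a type and more RNA per cell cannot be told apart.

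Nppa, the precursor of atrial natriuretic peptide, had 1614.0, 177.9 and 92.4 CPM in wild-type replicates 1, 2 and 3 and 4077.3, 2747.1 and 3738.7 CPM in Scx-/- replicates 1, 2 and 3. All Scx-/- libraries lay above all wild-type libraries, and wild-type replicate 1 lay well above the other wild-type libraries. The means were 628.1 ± 854.9 and 3521.0 ± 691.3 CPM (SD, n = 3 each), and the log2 fold change of Scx-/- over wild type was 2.24 ± 0.71 SE with an adjusted p of 0.738 in edgeR. Without wild-type replicate 1 it was 5.26 with an adjusted p of 0.0031, and with size factors by relative log expression in place of TMM it was 2.38 with an adjusted p of 0.0381.

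Myl7 had 1752.6, 177.9 and 56.8 CPM in wild type and 1858.3, 1282.8 and 1702.3 CPM in Scx-/-. Here wild-type replicate 1 lay among the Scx-/- libraries, so the groups overlapped, and the log2 fold change was 1.04 ± 0.71 SE (adjusted p = 0.744, edgeR). Myl4 had 918.4, 0 and 67.5 CPM in wild type and 1305.8, 1151.4 and 1228.3 CPM in Scx-/-, with no overlap and a log2 fold change of 1.52 ± 0.74 SE (adjusted p = 0.738). The 0 in wild-type replicate 2 allows up to 266.8 CPM at its depth. Without wild-type replicate 1 the Myl7 value was 4.60 (adjusted p = 0.0453) and the Myl4 value 4.55 (adjusted p = 0.0637). In each of the 3 genes wild-type replicate 1 was high and wild-type replicates 2 and 3 were low, so the 3 genes split the wild-type libraries in the same way. The Nppa and Myl7 levels of wild-type replicate 2 rested on 2 counts each.

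The list of 10 atrial genes had a summed level of 5573.9, 1511.9 and 657.1 CPM in wild type and 9761.8, 6739.4 and 8813.4 CPM in Scx-/-. Nppa, Myl7 and Myl4 belong to this list and made up most of its sum in wild-type replicate 1 and in the Scx-/- libraries. The other 7 genes summed to 1288.9, 1156.2 and 440.4 CPM in wild type and 2520.4, 1558.1 and 2144.1 CPM in Scx-/-, so in them wild-type replicate 2 was close to replicate 1. Of its 9 genes tested, 0 passed at an adjusted p under 0.05 and the fitted fold change was positive in 9, with a median log2 fold change of 1.44 beside -0.06 over all genes. Sarcolipin (Sln), an inhibitor of the sarcoplasmic calcium pump that atria express, had 493.3, 622.6 and 0 CPM in wild type and 990.8, 600.7 and 1158.2 CPM in Scx-/- and was chosen after its values were seen. Unlike the light chains, it was not low in wild-type replicate 2. The list of 7 ventricular genes summed to 22400.2, 19032.4 and 28635.9 CPM in wild type and 32193.8, 31963.8 and 26569.6 CPM in Scx-/-, so that no heart library lacked ventricular transcripts. Which chambers each library held was not tested.

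Nppb was at 0 in all 3 wild-type libraries and had 4, 2 and 5 counts in the Scx-/- libraries (18.3, 12.5 and 26.9 CPM). The pooled Scx-/- level of 19.5 CPM, from 11 counts, was at least 4.76-fold higher than the 4.09 CPM that 3 counts over the wild-type group would give. Without wild-type replicate 1 the bound fell to 1.9-fold, and without wild-type replicate 3 to 2.93-fold. The gene did not pass the test (adjusted p = 0.738, edgeR).

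**Figure D4:**
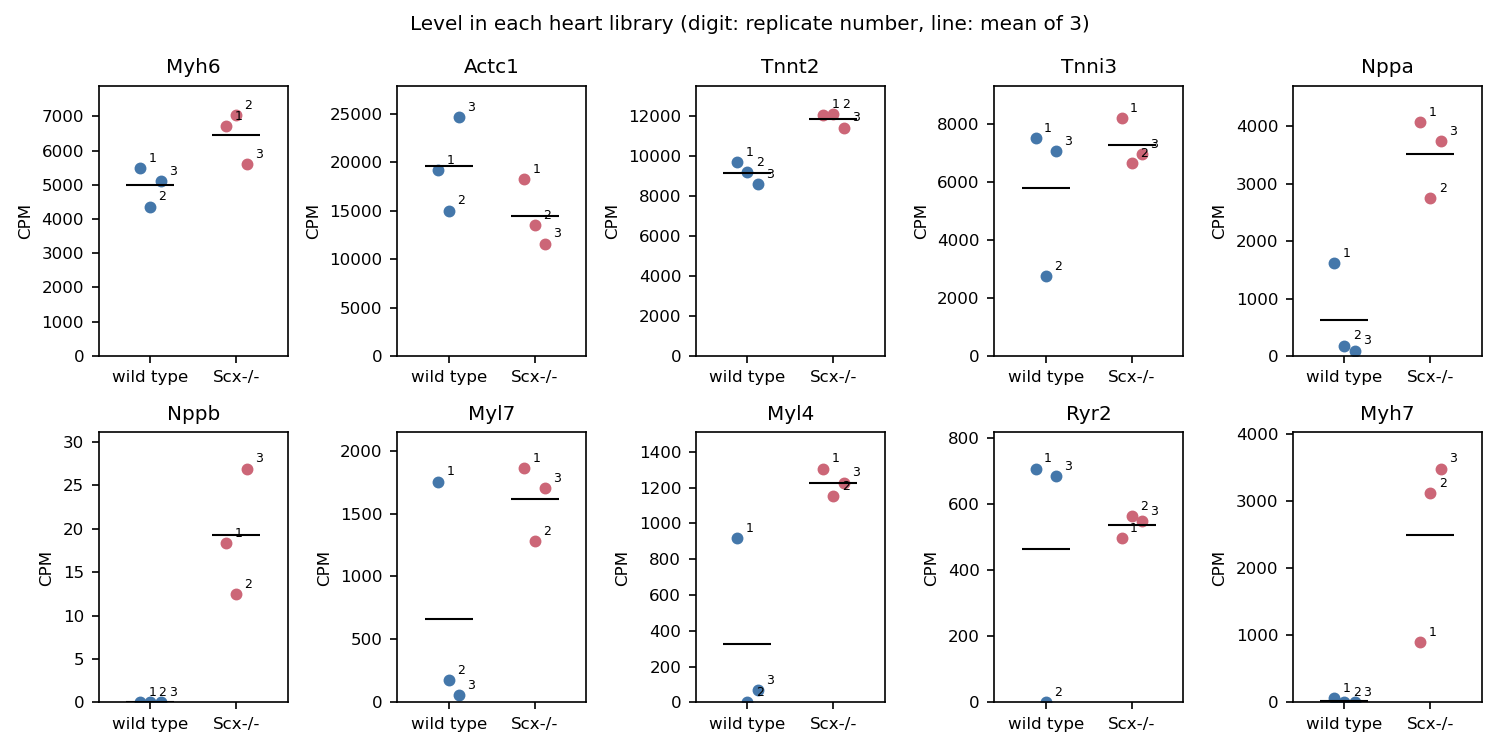
CPM of the 9 genes and of Myh7 in each heart library, with the wild-type libraries in blue, the Scx-/- libraries in red, replicate numbers beside the points and a line at each mean of 3. Nppa, Myl7 and Myl4 are high in wild-type replicate 1 and low in wild-type replicates 2 and 3, Nppb has no count in any wild-type library, and Myh7 is at 68.2 CPM or below in all 3.

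The sarcomere genes shared by atrial and ventricular cells had smaller differences. Tnnt2 had 9688.4, 9160.4 and 8595.7 CPM in wild type and 12044.7, 12077.1 and 11399.3 CPM in Scx-/-. Myh6 had 5489.8, 4357.9 and 5107.7 CPM in wild type and 6711.8, 7033.5 and 5602.7 CPM in Scx-/-. For both genes every Scx-/- library lay above every wild-type library, by a small step. The log2 fold changes were 0.48 ± 0.65 SE for Tnnt2 (adjusted p = 0.899) and 0.43 ± 0.66 SE for Myh6 (adjusted p = 0.931, edgeR). Tnni3 had 7519.8, 2757.0 and 7071.9 CPM in wild type and 8191.1, 6639.3 and 6949.5 CPM in Scx-/-, with overlap and a log2 fold change of 0.24 ± 0.65 SE (adjusted p = 0.971).

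Actc1, given per library above, was the one sarcomere gene of the set with a lower Scx-/- mean, at 14447.7 ± 3414.0 against 19648.8 ± 4853.6 CPM (SD, n = 3 each). The groups overlapped, with a log2 fold change of -0.41 ± 0.64 SE (adjusted p = 0.931, edgeR). Without wild-type replicate 2 it was -0.82 and passed (adjusted p = 5.75e-06). Ryr2 had 707.0, 0 and 685.5 CPM in wild type and 497.7, 563.2 and 549.5 CPM in Scx-/-. At the depth of wild-type replicate 2 the 0 allows up to 266.8 CPM, and the log2 fold change was -0.10 ± 0.75 SE (adjusted p = 0.998). Its direction turned with the library left out, from -0.61 to 0.40.

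Over the set, every Scx-/- library lay above every wild-type library for 5 genes, Nppa, Nppb, Myl4, Myh6 and Tnnt2, beside 3.77% of all genes tested, and below for 0, beside 2.2%. These counts take a library without a count as 0. For Nppb the depth of wild-type replicate 2 allows up to 266.8 CPM, above all 3 Scx-/- values. Its order against that library is therefore not known, which leaves 4 genes. For Myh6 the step was small, from 5489.8 CPM in wild-type replicate 1 to 5602.7 CPM in Scx-/- replicate 3. Wild-type replicate 2 held only 49 Myh6 counts, and this step was not tested against counting error. By the study's thresholds of an unadjusted p under 0.05 and a change of more than 1 on the log2 scale, 2 genes were higher in Scx-/- in edgeR, Nppa and Myl4, beside 1.31% of all genes, and 0 were lower, beside 2.09%. In DESeq2, the tool of the study, 1 passed these thresholds, Nppa (unadjusted p = 0.0483, adjusted p = 0.999), and Myl4 and Myl7 were given no p. The median log2 fold change of the 9 genes was 0.48, and -0.06 over all genes.

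**Figure D5:**
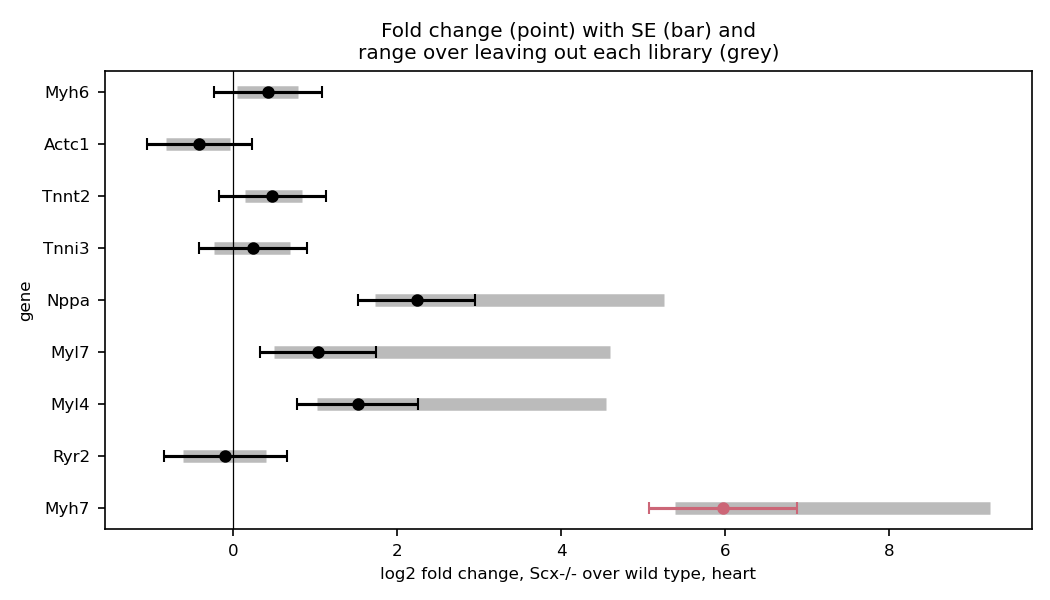
Log2 fold change of Scx-/- over wild type in heart for 8 of the genes and Myh7 (points), with SE (thin bars) and the range over fits that leave out 1 heart library each (grey). The grey ranges of Nppa (1.73 to 5.26), Myl7 (0.50 to 4.60) and Myl4 (1.02 to 4.55) reach far to the right, and those of Tnni3 and Ryr2 cross 0. Nppb is not drawn because its wild-type libraries are at 0.

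The partner genes of the cardiomyocyte were read from lists. Of 20 other sarcomere genes, 1 rose in Scx-/- heart and 0 fell at an adjusted p under 0.05, with a median log2 fold change of 0.40. The one that rose was Myh7, the beta myosin heavy chain, a slower motor that the mouse heart uses before birth and that slow skeletal muscle uses throughout life. It had 68.2, 0 and 3.55 CPM in wild type and 899.5, 3116.3 and 3480.1 CPM in Scx-/-, with a log2 fold change of 5.97 ± 0.90 SE (adjusted p = 5.07e-07, edgeR). Every Scx-/- library lay far above every wild-type library, also above the 266.8 CPM that the 0 in wild-type replicate 2 allows. Of the counts of Myh7 and Myh6 together, Myh7 made up 1.23%, 0 and 0.0695% in wild type and 11.8%, 30.7% and 38.3% in Scx-/-, a ratio chosen after its values were seen. Without wild-type replicate 2 the Myh7 value was 5.73 with an adjusted p of 0.873, and without any other single heart library it passed (adjusted p = 5.57e-06 to 0.0117). The abundant partners Myl2 (adjusted p = 0.932), Myl3 (0.971) and Tpm1 (0.998) did not pass. Unlike Nppa, Myl7 and Myl4, Myh7 in wild-type replicate 1 lay far below every Scx-/- library.

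In the other cardiac lists no gene passed at an adjusted p under 0.05 apart from Myh7, which the list of 7 ventricular genes also holds (median log2 fold change 0.25). The 13 calcium handling genes had a median log2 fold change of 0.16, with Atp2a2, the calcium pump, at 7619.0 ± 1959.7 CPM in wild type and 8487.2 ± 746.1 CPM in Scx-/- (SD, n = 3 each), and Pln, its inhibitor, at 6851.0 ± 921.8 and 7798.9 ± 1173.4 CPM. The 12 transcription factors tested, led by Myocd, Tbx20 and Mef2a, had a median of 0.08, and the 12 conduction and channel genes, led by Gja1 and Kcne1, a median of 0.18. Of 8 genes tested for the processing and receptors of natriuretic peptides, the most abundant was Corin, the enzyme that cleaves the Nppa product, at 68.1 ± 65.0 CPM in wild type and 147.1 ± 86.2 CPM in Scx-/- (adjusted p = 0.931), and the median was -0.21. The 12 energy genes tested, led by Mb, Slc25a4 and Lpl, had a median of 0.31, and the 5 developmental muscle genes tested, 3 of them belonging to the atrial or thin filament genes above, had one of 0.48.

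Markers of other cell types in the same heart libraries gave 2 further calls. Of 15 skeletal muscle genes tested, Casq1, the calsequestrin of skeletal muscle, fell, with 161.4, 711.5 and 170.5 CPM in wild type and 0 in all 3 Scx-/- libraries (adjusted p = 0.00302), and it no longer passed when any one of the Scx-/- libraries was left out (adjusted p = 0.208 to 0.47), with the other 2 still at 0. The median of that list was 1.11, or 0 with genes absent from a group set at their bound. Of 7 erythroid genes tested, Hbb-bs, a beta globin, fell (adjusted p = 0.00111), and without wild-type replicate 2 its log2 fold change was 0.50. The lists of 10 smooth muscle, 10 endothelial, 10 fibroblast and 8 hepatocyte genes had no gene that passed and medians of -0.08, -0.21, -0.69 and -0.66. The 5 brown fat genes tested (median 0.33) and the 3 lung epithelium genes tested (median 1.29, or 0 at bounds) had none either. Summed hepatocyte markers were 1313.9 to 2757.0 CPM in wild-type heart and 582.0 to 2095.6 CPM in Scx-/- heart, summed fibroblast markers 5014.7 to 10405.5 and 3528.6 to 4488.2 CPM, and summed erythroid markers 1673.0 to 4624.7 and 857.3 to 2374.2 CPM. The part of these cell types in the differences of the cardiomyocyte genes was not tested.

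Outside the heart, 85 of the 135 pairs of a gene and a tissue could be tested between genotypes, since the rest had no count in any of the 6 libraries. At an adjusted p under 0.05, 0 of them passed in edgeR, beside 0.0946% of all gene and tissue pairs. At an unadjusted p under 0.05 there were 8, beside 4.04% of all pairs, and DESeq2 gave 0 of 54 with an adjusted p. The smallest p was that of Actc1 in cartilage, which had 261.7, 350.8 and 206.7 CPM in wild type and 28.9, 24.3 and 50.7 CPM in Scx-/-. The groups did not overlap, and the log2 fold change was -2.89 ± 0.76 SE (adjusted p = 0.357). These libraries also held skeletal muscle transcripts, with a summed level of 18 skeletal muscle genes of 150823.3 to 173006.8 CPM in wild type and 150790.9 to 193441.7 CPM in Scx-/-, and their part in the Actc1 difference was not tested. Scx-/- cartilage replicate 1, with 28.9 CPM of Actc1, was also the library that held 9 Scx counts. The wild-type cartilage libraries held 0, 7 and 1 Scx counts, so this gene does not bear out the label of that library. Of the other 7 pairs with an unadjusted p under 0.05, 4 were the vascular values of Myh6, Myl4, Myl7 and Tnnt2, which rested on Scx-/- replicate 3. The last 3 were Ryr2 in intestine and Myh6 in spleen, each counted in 1 Scx-/- library only, and Myl4 in stomach, counted in 2.

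Outside the heart the Scx-/- mean of Actc1 was below the wild-type mean in 10 of the 14 tissues tested and above it in 4, which were vascular (34.6 and 138.8 CPM in wild type and Scx-/-), spleen (12.8 and 32.6 CPM), liver (4.8 and 10.6 CPM) and kidney (10.5 and 12.7 CPM), each with overlap of the groups. Other genes of the set leaned as far the other way, with a higher Scx-/- mean in 10 of 12 tissues tested for Myl4, 10 of 14 for Tnnt2 and 5 of 6 for Nppa. Some of these means were near the floor, such as Myl4 in rectum (0 and 1.06 CPM in wild type and Scx-/-). Nppa had 42 counts in all outside the heart. The directions of all genes were not counted beside these, so they are a description only. In bladder, Actc1 had 333.4, 1725.8 and 628.9 CPM in wild type and 227.8, 309.0 and 45.3 CPM in Scx-/-, with no overlap and a log2 fold change of -2.25 ± 1.05 SE (adjusted p = 0.804, edgeR). It passed without Scx-/- bladder replicate 3 (-1.80, adjusted p = 0.00157) and without wild-type bladder replicate 1 (-2.65, adjusted p = 0.000189). In muscle it passed without wild-type muscle replicate 1, a library of 30409 counts (-0.60, adjusted p = 0.00556). In lung the groups overlapped, at 181.3, 492.2 and 432.4 CPM in wild type and 140.5, 202.2 and 121.2 CPM in Scx-/-. In vascular, Tnnt2 passed without Scx-/- vascular replicate 2 (adjusted p = 0.0428), a value that rests on Scx-/- replicate 3.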

How the data were processed

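Bulk RNA libraries of heart and 15 other tissues were analysed from the table that the authors deposited, which holds whole-number counts per gene symbol without normalization. According to the labels and the methods, the authors reverse transcribed total RNA, made Nextera XT libraries, aligned reads to mm10 with Bowtie2 and counted them with HTSeq. Versions, gene annotation, strand setting and any molecular identifiers were not given in the sources used here, so detection floors (3 counts) cover counting error only. The record names a Smart-seq2 type of protocol, and the paper describes, outside its methods section, a multiplexed one that enriches transcript ends.

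Genes at 0 in all libraries of a comparison were removed. Tests used edgeR 4.0.16 in R 4.3.3 with TMM factors, robust dispersions and quasi-likelihood fits, with genotype as a covariate between tissues, and Benjamini-Hochberg adjustment over all genes of a comparison. The SE of a log2 fold change was derived from its F statistic. Calls are at an adjusted p under 0.05. Vascular samples, which the authors set aside over brown fat transcripts, were kept here as labelled. Tissues next to each other in level were compared by exact permutation tests on log2(CPM + 1). Depth was 11244 to 1658192 counts per library. The fits were tested on counts simulated with the spread of the libraries compared. The genotype fit of heart called 0% of 4-fold and 71.5% of 16-fold changes (200 changed genes among 11691 to 11695). The fit of heart against lung (14404 to 14445 genes) called 14% and 96.5%. The changed genes were drawn only from genes above a minimum mean level, so these rates do not cover low genes such as Nppb. No 2 replicate libraries agreed within sampling noise (the lowest ratio of chi-square to its degrees of freedom was 6.93 over 96 pairs).

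Alternatives were DESeq2 1.42.0, size factors by relative log expression, library totals, filterByExpr, no filter, a replicate block, pseudocounts of 0.1 and 10, TMM-scaled CPM and leaving out each library. Leaving out libraries under 50000 counts was added after seeing the data. The members, gene lists and tests were chosen with earlier results of these data known. Named genes were the 9 members, the 3 most abundant genes of each list in heart, list genes called between genotypes in heart, and the 3 genes most like each member, except where a choice after seeing values is stated and for 1 gene that is not reported here. Motifs were searched in RefSeq promoter windows, which matched all 9 genes. Exact tests were run in Python 3.11.15, and no column of the table was left without a sample.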

Additional observations from a re-analysis of the deposited data

How the results depend on the processing

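The count of genes higher in heart than in another tissue stayed within 114 to 120 (118 as reported) when each library was left out, and that of genes higher than in liver within 9 to 12 (12 as reported). In the genotype comparison of heart, the number of genes called (0) was 1 with size factors by relative log expression and 0 to 2 with each library left out. By the study's thresholds the number (2) was 1 with DESeq2, 1 with filterByExpr and 0 to 3 with a library left out. In the other tissues the number (0) was 0 to 1 with a library left out, and among list genes the number (3) was 1 to 3. The log2 fold change of Ryr2 in heart (-0.10) was 0.04 with DESeq2, 0.04 with relative log expression, 0.05 with library totals and -0.61 to 0.40 with a library left out. That of Tnni3 ran from -0.23 to 0.70 and that of Hbb-bs from -6.43 to 0.50, and the cause was not tested. Of the tissue neighbours, 6 pairs passed with TMM-scaled CPM and 0 under the other settings.

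Replicate numbers are shared between groups, but samples with the same number did not deviate together in any of 36 comparisons. At these depths counting noise could hide a shared mouse, so the check cannot say whether the numbers pair. The numbers are used here only to name libraries. With the replicate number as a block, 1 gene was called in the other tissues (Actc1 in bladder), 1 list gene in heart, and Ryr2 in heart was 0.47. Wild-type heart replicate 2, at 11244 counts, limits every low gene of the heart comparison.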
